A study of Homo sapiens with 6 samples.

Results

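The genes described here encode 5 cold shock domain RNA-binding proteins, the Y-box proteins *YBX1*, *YBX2* and *YBX3* and the LIN28 proteins *LIN28A* and *LIN28B*. They were picked by symbol and are 5 of the 28395 genes counted in RNA sequencing of H146 cells. H146 (NCI-H146) is an established small-cell lung cancer (SCLC) cell line. *YBX3* was chosen because its counts were higher after knockdown of *KIFC1*, a minus end–directed kinesin motor. Its values in that comparison are therefore a description, and no test is given for them. The other 4 genes were taken as relatives of *YBX3* and were tested with all other genes.

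There were 3 control siRNA libraries, from cells given a scrambled negative control siRNA, and 3 siKIFC1 #2 libraries, from cells given an siRNA against *KIFC1*. The genotype label is WT for the former and KIFC1 knockdown for the latter, and both were taken at day 2. The labels name biological replicates 1 to 3 in each group without saying how they were separated. With 1 cell line and 1 siRNA, an effect of *KIFC1* loss and an effect of this siRNA sequence on other transcripts cannot be told apart. Total counts ran from 15392374 to 17754458 per library, and mitochondrial genes took 8.34% to 13.1% of them. The summed level of 6 neuroendocrine SCLC markers was 1866 to 1993 CPM (counts scaled by library size to a common total) with control siRNA and 1935 to 2252 CPM with siKIFC1 #2. The sum over 10 markers of blood, stromal, endothelial and airway cells was 15.3 to 22.1 CPM and 18.1 to 20.2 CPM, with 1 of the 10 at 0 in every library and 3 at no more than 3 counts in any. *KIFC1* itself had 14, 4 and 14 counts under control siRNA, against 1, 1 and 0 under siKIFC1 #2. Against a floor of 3 counts per siKIFC1 #2 library, its level was at least 3.23-fold lower. It missed the threshold (adjusted p = 0.0739, quasi-likelihood test of edgeR), and passed it with the replicate number as a block (adjusted p = 0.00459), with limma-voom (adjusted p = 0.0445) and without a filter on low counts (adjusted p = 0.00412). All of the 32-base words of its transcript (100%) also occur on alternate sequences of GRCh38, and the part of this in its low counts was not tested.

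The cold shock domain is an ancient nucleic acid–binding fold that lies flat against single-stranded RNA or DNA. YB-1, the product of *YBX1*, coats cytoplasmic mRNA and affects its translation and stability. YBX3, also called DbpA or ZONAB, binds mRNA as well and has been studied at tight junctions, while YBX2 (MSY2, contrin) packages stored mRNA in germ cells. LIN28A and LIN28B join a cold shock domain to zinc knuckles and block the maturation of let-7 microRNAs. The let-7 family in turn represses *LIN28* and a set of growth genes.

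In the control cells, *YBX1* had the highest level of the 5 genes and *LIN28A* the lowest. Counts were scaled by library size with edgeR's TMM factors, and levels were compared between genes per kilobase of the canonical transcript. *YBX1* (NCBI gene ID 4904) has 8 exons on the plus strand of chromosome 1 (GRCh38, 42682418 to 42703805). Its control level was 277.0 ± 24.1 CPM per kilobase (SD, n = 3). It ranked 145 of 14325 genes on that scale. *YBX3* (ID 8531), with 10 exons on the minus strand of chromosome 12 at 10699089 to 10723323, was at 61.5 ± 5.55 CPM per kilobase (SD, n = 3), rank 1068. *LIN28B* (ID 389421), with 4 exons on the plus strand of chromosome 6 at 104936616 to 105083332, was at 19.8 ± 1.11 CPM per kilobase (SD, n = 3), rank 3804.

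Both germ-line and embryonic relatives were low. *YBX2* (ID 51087; chromosome 17, 7288263 to 7294639, minus strand, 9 exons) stood at 1.44 ± 0.365 CPM per kilobase (SD, n = 3) and ranked 11670. *LIN28A* (ID 79727; chromosome 1, 26410817 to 26429728, plus strand, 4 exons) stood at 0.176 ± 0.0875 CPM per kilobase (SD, n = 3) and ranked 14123. No neighbours in this order overlapped in their 3 control libraries. The steps down from *YBX1* were 4.50-fold to *YBX3*, 3.10-fold to *LIN28B*, 13.8-fold to *YBX2* and 8.17-fold to *LIN28A*. The order of *YBX3* and *LIN28B* rests on the length used. Over the union of all annotated exons, which is 8621 bases for *YBX3* against 1931 for its canonical transcript, *YBX3* was at 13.8 and *LIN28B* at 18.2 CPM per kilobase. The other places in the order did not change with that length, but the steps did. By exon union *YBX1* was 17.6-fold above *YBX3*, *LIN28B* 35.3-fold above *YBX2* and *YBX2* 2.92-fold above *LIN28A*.

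Reads of these genes can be shared with copies elsewhere in the genome. Of the 32-base words of the canonical transcript, 48.0% occurred at 2 or more places for *YBX1* and 36.2% for *LIN28A*, against 16.4% for *LIN28B*, 13.7% for *YBX3* and 8.76% for *YBX2*. RefSeq names 16 pseudogenes after these genes, and 1 of them, *YBX3P1*, had a row of counts. It held 4, 9 and 7 counts under control siRNA, against 9, 9 and 8 under siKIFC1 #2. How reads that align to several places were treated is not given in the sources used here, so the levels of *YBX1* and *LIN28A* are less certain than those of the other 3 genes. The antisense gene *LIN28B-AS1*, which overlaps *LIN28B*, had 0 to 2 counts per library.

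**Figure D1:**
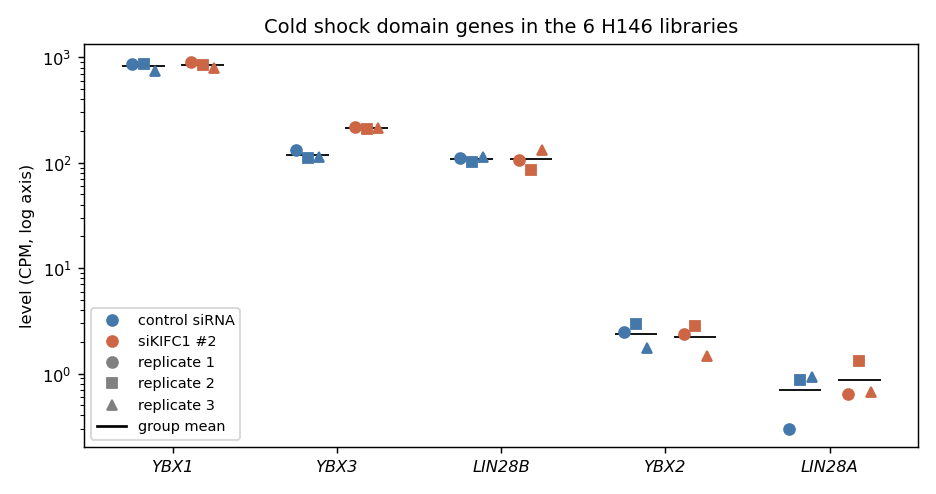
Level of each of the 5 cold shock domain genes in each of the 6 H146 libraries, in CPM on a log axis. Points are libraries, marker shapes are replicate numbers and black lines are group means. The control siRNA points (111.8 to 131.1 CPM) and siKIFC1 #2 points (207.5 to 220.5 CPM) of *YBX3* do not overlap, unlike those of the other genes shown. *YBX3* was chosen for its rise in these libraries, so nothing is read from that contrast. Among all genes tested, the groups did not overlap for 15.5%.

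*YBX3* was higher in every siKIFC1 #2 library than in every control library. It had 2185, 1785 and 2085 counts under control siRNA, against 3453, 3151 and 3524 under siKIFC1 #2. On the CPM scale these were 131.1, 111.8 and 113.5 against 220.5, 207.5 and 215.8. Both groups were tight, and the lowest siKIFC1 #2 library lay well above the highest control library. The mean went from 118.8 ± 10.7 to 214.6 ± 6.56 CPM (SD, n = 3 each), a difference of 95.8 CPM and a fitted fold of 1.81. On the log2 scale the fit gave 0.85, with a standard error (SE) of 0.10. The ratio of siKIFC1 #2 to control within replicate numbers 1, 2 and 3 was 0.75, 0.89 and 0.93 on the log2 scale. Over the 14 alternative analyses the log2 fold change stayed between 0.81 and 0.93. It ranked 98 of the 14777 genes tested when these were ordered from the highest log2 fold change down. Among the 6691 genes with a mean log2 CPM of at least 5 it ranked 8. In bulk RNA, more transcript per cell and a larger share of cells that carry the transcript cannot be told apart.

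Across all genes, 48 of 14777 (0.325%) were called higher and 55 (0.372%) lower with siKIFC1 #2, which is 0.697% in either direction at an adjusted p under 0.05. With the replicate number as a block, 861 (5.83%) were called. At an unadjusted p under 0.05 there were 1369 (9.26%). The total of 103 fell to between 24 and 64 when any 1 library other than siKIFC1 #2 replicate 3 was left out, and was 468 without that one. The groups did not overlap for 15.5% of the genes tested. All 5 cold shock domain genes passed the filter on low counts. *YBX3* was chosen for its rise, so no call is given for it, and nothing is read from its lack of overlap. None of the others was called, and the groups of each overlapped.

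The other Y-box genes were not called. *YBX1* had 14332, 13937 and 13639 counts under control siRNA, against 14055, 12879 and 12914 under siKIFC1 #2. Its groups overlapped, at 825.2 ± 71.7 and 845.5 ± 53.4 CPM (SD, n = 3 each). The log2 fold change was 0.04 (SE 0.11, adjusted p = 0.967, the quasi-likelihood test of edgeR), with a 95% interval of -0.20 to 0.27. *YBX2* had 41, 47 and 32 counts against 37, 43 and 24. Its level was 2.38 ± 0.604 CPM with control siRNA and 2.22 ± 0.692 CPM with siKIFC1 #2 (SD, n = 3 each), and the groups overlapped. Its log2 fold change was -0.10 (SE 0.30, adjusted p = 0.967, same test), with an interval of -0.76 to 0.56. The upper end of that interval is a 1.48-fold rise, so a rise of *YBX2* of up to that size is not excluded.

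**Figure D2:**
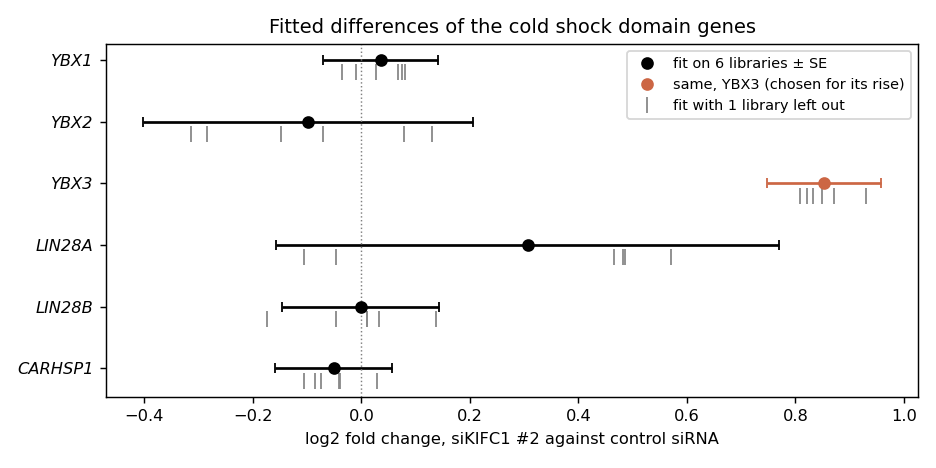
Fitted log2 fold change, siKIFC1 #2 against control siRNA, of the 5 cold shock domain genes and of *CARHSP1*, another gene with the domain. Circles with bars are the fit on 6 libraries ± standard error, and grey ticks are fits with 1 library left out. *YBX3* (orange, chosen for its rise) lies between 0.81 and 0.93 in every such fit, while the ticks of the 4 other genes of the set fall on both sides of 0.

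The share of Y-box counts that fell on *YBX3* followed from these values. *YBX3* took 13.2%, 11.3% and 13.2% of the *YBX1*, *YBX2* and *YBX3* counts in the control libraries and 19.7%, 19.6% and 21.4% in the siKIFC1 #2 libraries. The exact (Clopper-Pearson) 95% intervals of these 6 shares, which cover counting error only, ran from 10.8% to 13.8% over the controls and from 19.0% to 22.0% over the knockdown libraries. The mean share was 12.6 ± 1.09% and 20.2 ± 1.02% (SD, n = 3 each). The summed level of the 3 genes was 946.4 ± 76.6 CPM with control siRNA and 1062 ± 56.3 CPM with siKIFC1 #2. Per kilobase, *YBX1* exceeded *YBX3* 4.50-fold in the controls and 2.55-fold after knockdown by canonical transcript length, and 17.6-fold in the controls by exon union. After knockdown the levels by exon union were 249.0 CPM per kilobase for *YBX1* and 24.9 for *YBX3*. *YBX1* therefore remained the most abundant Y-box transcript in both groups. These shares use the counts by which *YBX3* was chosen and carry no test.

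**Figure D3:**
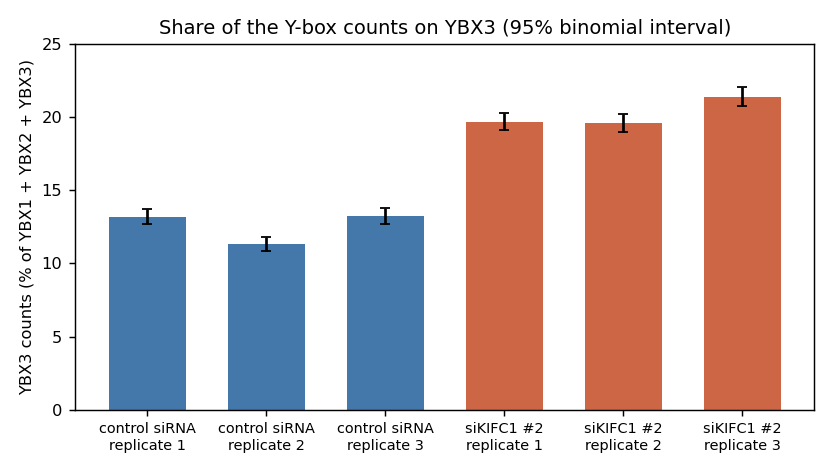
Percent of the *YBX1*, *YBX2* and *YBX3* counts that fell on *YBX3* in each library, with exact 95% binomial intervals as bars. The 3 control siRNA libraries (blue) lie at 11.3% to 13.2% and the 3 siKIFC1 #2 libraries (orange) at 19.6% to 21.4%.

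*LIN28B*, the LIN28 gene that these cells expressed, had nearly equal means in both groups, with a larger spread after knockdown. It had 1828, 1618 and 2075 counts under control siRNA, against 1666, 1294 and 2158 under siKIFC1 #2. In CPM these were 109.7, 101.3 and 113.0 against 106.4, 85.2 and 132.1. Replicate 2 was the lowest and replicate 3 the highest library in both groups, and the siKIFC1 #2 libraries lay on both sides of all 3 controls. The means were 108.0 ± 6.03 and 107.9 ± 23.5 CPM (SD, n = 3 each). The log2 fold change was 0.00 (SE 0.14, adjusted p = 0.999, the quasi-likelihood test of edgeR), with a 95% interval of -0.32 to 0.31. Without siKIFC1 #2 replicate 3 it was -0.17 and without siKIFC1 #2 replicate 2 it was 0.14.

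*LIN28A* was close to the limit of detection. It had 5, 14 and 17 counts under control siRNA, against 10, 20 and 11 under siKIFC1 #2. The groups overlapped, at 0.701 ± 0.348 and 0.876 ± 0.382 CPM (SD, n = 3 each). Its log2 fold change of 0.31 (SE 0.46, adjusted p = 0.914, same test) had an interval of -0.71 to 1.32. A rise of the size measured for *YBX3* lies within that interval and is therefore not excluded for *LIN28A* at this depth. *LIN28A* made up 0.648 ± 0.326% of the LIN28 counts with control siRNA and 0.875 ± 0.562% with siKIFC1 #2 (SD, n = 3 each).

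Since LIN28 proteins act on let-7, the let-7 sequences and their matches in the 3′ untranslated regions (UTRs) of these genes are shown. The mature let-7 arms below are those encoded within the 4 host transcripts counted here, as RefSeq gives them on GRCh38, with the seed (bases 2 to 8) in capitals. Among the mature human let-7 and miR-98 names in RefSeq, 9 share this seed, and other microRNAs were not searched for it.
let-7a, in *MIR100HG* (chromosome 11) and *MIRLET7BHG* (chromosome 22): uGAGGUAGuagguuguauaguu
let-7b, in *MIRLET7BHG*: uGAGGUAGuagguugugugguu
let-7c, in *MIR99AHG* (chromosome 21): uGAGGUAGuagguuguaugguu
let-7f, in *HUWE1* (chromosome X): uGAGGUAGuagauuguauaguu
miR-98, in *HUWE1*: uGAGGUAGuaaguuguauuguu

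The reverse complement of this seed, CTACCTC, was searched on the transcribed strand of the 3′ UTR of each gene's GENCODE 44 canonical transcript. *LIN28B* held 4 copies in 4549 bases, at positions 44, 2471, 2653 and 4092 from the first base of the 3′ UTR. Of the 1318 3′ UTRs of like length (the shorter at least 0.8 of the longer), 23.7% held at least 1 copy. The 4 sites are shown with the match in capitals, on the plus strand of chromosome 6 of GRCh38.
chr6:105078816-105078844: ggttgcaaagtCTACCTCatgcaagtata
chr6:105081243-105081271: gatgatagtaaCTACCTCtgagtttgaca
chr6:105081425-105081453: acagcaaaaggCTACCTCatagttgatac
chr6:105082864-105082892: gatggtgttgaCTACCTCttgaatcacat
*LIN28A* held 1 copy in 3270 bases, where 16.5% of like-length 3′ UTRs held the word, and *YBX2* held 1 in 420 bases, where 3.25% did. *YBX1* and *YBX3* held 0 copies, beside 11.7% and 3.87% of like-length 3′ UTRs. Over all 12972 3′ UTRs, 11.1% held the word. A match is a description of the sequence and does not show that let-7 binds there.

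The 3′ UTR of *YBX3* is 600 bases long and held 1 copy of GCAACC, a word picked because 3′ UTRs with it had higher values after knockdown in these same libraries. It is shown for that reason, and it is no independent evidence for the rise of *YBX3*. The copy begins at position 275, on the minus strand of chromosome 12, with the word in capitals.
chr12:10699398-10699425: ctccagtttcaGCAACCgctaggtttct
The word was present in 7.82% of 1369 like-length 3′ UTRs and in 23.2% of all 12972. *YBX1* and *LIN28A*, which were not called, also held 1 copy each, where 24.4% and 40.2% of like-length 3′ UTRs did, and *YBX2* and *LIN28B* held 0. The word GAGATCT, picked in the same way for lower values, had 0 copies in *YBX3* and 1 copy in *LIN28A* only.

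*CARHSP1*, a small cytoplasmic mRNA-binding protein that also has a cold shock domain, was at 124.1 ± 3.32 and 119.7 ± 11.9 CPM (SD, n = 3 each), with a log2 fold change of -0.05 (SE 0.11, adjusted p = 0.946). *CSDC2* had 1 to 7 counts per library and was not tested. In CPM, *YBX3* and *CARHSP1* had close control means. *YBX3* was chosen for its rise, so nothing is read from their difference after knockdown.

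The pathway genes of these proteins were then counted by role, from lists written by hand from the roles of the genes. The lists were chosen with earlier results of these data known. Nothing is therefore read from their shares beside those of all genes tested. Of 106 genes in the union of the lists, 90 were tested, 1 was called higher and 1 lower, which is 2 of 90 (2.22%) beside 0.697% of all genes tested. Their median log2 fold change was 0.01, the same as that of all genes tested, with 48 values above and 42 below 0. The groups did not overlap for 23 of the 90 (25.6%), beside 15.5% of all genes tested. With the replicate number as a block, 12 of the 90 (13.3%) were called, 6 higher and 6 lower, beside 5.83% of all genes tested. At an unadjusted p under 0.05 there were 17 of the 90 (18.9%), beside 9.26%. DESeq2 called 5 of the 90, beside 1.83% of all genes tested, and limma-voom 2, beside 0.656%, and with 1 library left out edgeR called 0 to 6.

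Both called genes belong to the 8 kinases and ubiquitin ligases that act on YB-1. *FBXO33*, the F-box part of a ubiquitin ligase for YB-1, rose. It had 306, 256 and 259 counts under control siRNA, against 419, 405 and 505 under siKIFC1 #2, and the groups did not overlap. Its level went from 16.2 ± 2.13 to 28.1 ± 2.43 CPM (SD, n = 3 each), a log2 fold change of 0.80 (SE 0.14, adjusted p = 0.0241). *RPS6KA2*, a ribosomal S6 kinase of the family that phosphorylates YB-1, fell. It had 725, 690 and 831 counts against 473, 406 and 497, also without overlap. Its levels were 43.5, 43.2 and 45.3 CPM with control siRNA and 30.2, 26.7 and 30.4 CPM with siKIFC1 #2 (mean of the latter 29.1 ± 2.07, SD, n = 3), a log2 fold change of -0.59 (SE 0.11, adjusted p = 0.0338). Neither call held in every fit with 1 library left out. *FBXO33* had an adjusted p of up to 0.168 and lost its call without any 1 of the controls or without siKIFC1 #2 replicate 1. *RPS6KA2* had an adjusted p of up to 0.228 and was still called only without siKIFC1 #2 replicate 3.

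The more abundant kinases were not called. *AKT1* and *AKT2*, which phosphorylate YB-1 in its cold shock domain, had log2 fold changes of 0.18 and -0.16 (adjusted p = 0.709 or higher). The kinase *RPS6KA3* was at 0.11 (adjusted p = 0.900).

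**Figure D4:**
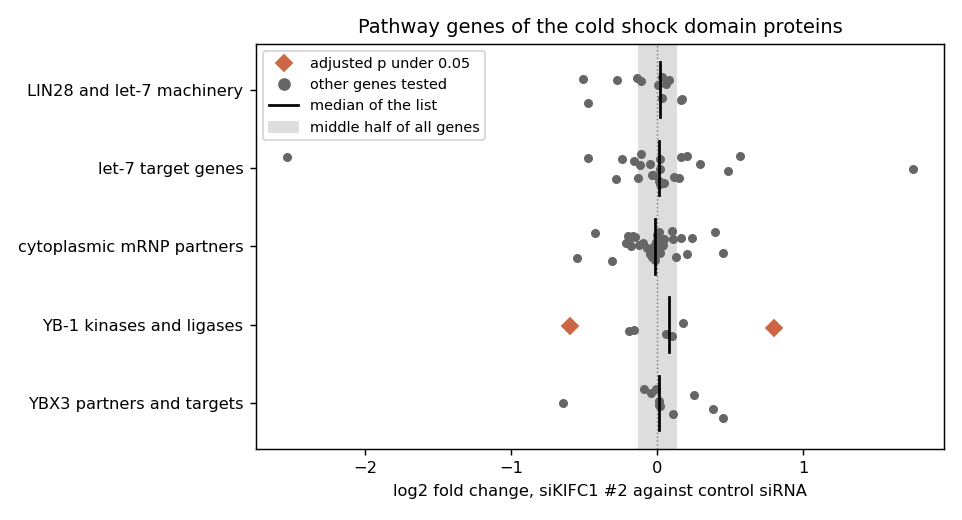
Log2 fold change, siKIFC1 #2 against control siRNA, of the tested genes in 5 pathway lists. Points are genes (1 tested kinase gene is not shown), short lines are medians over all tested genes of a list and the grey band spans the quartiles of all genes tested. The orange diamonds are *FBXO33* (0.80) and *RPS6KA2* (-0.59), the 2 genes with an adjusted p under 0.05, and the point farthest left is *HRAS* (-2.53).

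Among the genes through which LIN28 and let-7 act, 0 of 12 were called by the quasi-likelihood test of edgeR, with 0 higher and 2 lower (16.7%, beside 9.26% of all genes tested) at an unadjusted p under 0.05, and 0 by DESeq2 or limma-voom. Most of the 12 make, degrade or use let-7, and the median log2 fold change of the list was 0.02. *TUT4* and *TUT7*, which add uridines to let-7 precursors bound by LIN28, were at 0.06 and 0.04, and *DIS3L2*, the nuclease that degrades the tailed precursor, was at 0.08. *XPO5*, the exporter of precursors, was at 0.03 (adjusted p = 0.968) and *MSI2*, an RNA-binding protein, at 0.17 (adjusted p = 0.769). *AGO2*, the slicing Argonaute, had 3022, 3028 and 4515 counts under control siRNA, against 2010, 1776 and 3089 under siKIFC1 #2. The groups overlapped through replicate 3, the highest library of each. Its level was 205.6 ± 35.1 and 144.8 ± 38.8 CPM (SD, n = 3 each), with a log2 fold change of -0.51 (adjusted p = 0.331), and it was called without siKIFC1 #2 replicate 3 (-0.75, adjusted p = 0.00550). With the replicate number as a block *AGO2* was called lower at -0.52 (adjusted p = 0.000116), as was *TRIM71*, a let-7 target that also acts on *AGO2*, at -0.52 (adjusted p = 0.0311). These 2 genes are the list's calls under the block (16.7%, beside 5.83% of all genes tested), and *TRIM71* is named because of that call.

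The host transcripts of let-7 had 0 calls of 2 tested, by edgeR, DESeq2 or limma-voom, and 0 at an unadjusted p under 0.05. *MIRLET7BHG* had 28, 36 and 31 counts under control siRNA, against 30, 52 and 50 under siKIFC1 #2, a log2 fold change of 0.58 (adjusted p = 0.577). *HUWE1*, a ubiquitin ligase gene that hosts let-7f and miR-98, was at 446.4 ± 66.7 and 418.3 ± 109.8 CPM (SD, n = 3 each), with a log2 fold change of -0.09 (adjusted p = 0.933). *MIR100HG* and *MIR99AHG* had 0 to 2 counts per library and were not tested. Mature let-7 was not measured by this RNA sequencing.

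Of 28 let-7 target genes, 24 were tested and 0 were called by the quasi-likelihood test of edgeR, with 2 higher and 3 lower (20.8%, beside 9.26% of all genes tested) at an unadjusted p under 0.05, and 0 by DESeq2 or limma-voom. Of the 24 with a 3′ UTR in the annotation used, 17 (70.8%) held CTACCTC. The median log2 fold change was 0.02. *RRM2*, a subunit of ribonucleotide reductase, was at -0.12 (adjusted p = 0.817), the chromatin protein gene *HMGA1* at -0.13 (adjusted p = 0.831) and *MYC* at 0.16 (adjusted p = 0.701). *HMGA2*, *IGF2BP1* and *IGF2BP2*, widely used oncofetal let-7 targets, had 0 to 12 counts per library and were not tested, while *IGF2BP3* was at 115.8 CPM in the controls and 117.2 CPM after knockdown. The most negative value was that of *HRAS*, which had 382, 94 and 35 counts under control siRNA, against 29, 28 and 26 under siKIFC1 #2. Most of its control counts came from replicate 1. With the replicate block 2 of the 24 (8.33%, beside 5.83% of all genes tested) were called, *TRIM71* lower, as given above, and *CCND2* higher. *CCND2*, with 3, 11 and 3 counts against 15, 27 and 12, had an adjusted p of 0.0114 with the block and 0.258 without it.

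Of 36 cytoplasmic partners of YB-1 in messenger ribonucleoproteins, 33 were tested and 0 were called by the quasi-likelihood test of edgeR, with 3 higher and 3 lower (18.2%, beside 9.26% of all genes tested) at an unadjusted p under 0.05, and their median log2 fold change was -0.01. DESeq2 called 2 lower, *PURA* and *ELAVL3*, where it called 1.83% of all genes tested in either direction, and limma-voom called 0. *PABPC1*, the poly(A)-binding protein, was at 0.21 (adjusted p = 0.602), *HNRNPU* at -0.02 (adjusted p = 0.982) and the translation factor *EIF4G1* at -0.16 (adjusted p = 0.701). *EIF4A1* was listed at 0 in all 6 libraries, where the overlapping *SENP3-EIF4A1* readthrough had 2 to 7 counts, and the cause was not tested. The block called 5 partners (15.2%, beside 5.83% of all genes tested), which are named for that reason. The stress granule and FMRP-family genes *G3BP2* and *FXR1* were called higher, at 0.44 (adjusted p = 0.00116) and 0.39 (adjusted p = 0.00165). The purine-rich element binder *PURA* and the neuronal ELAV genes *ELAVL3* and *ELAVL4* were called lower, at -0.55 (adjusted p = 0.00341), -0.43 (adjusted p = 0.000300) and -0.32 (adjusted p = 0.0252). Without the block the adjusted p of these 5 ran from 0.0950 for *PURA* to 0.331 for *ELAVL4*.

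The partners and reported targets of YBX3 itself had a median log2 fold change of 0.02, with 7 values above and 4 below 0. Of 12 listed, 11 were tested and 0 were called by the quasi-likelihood test of edgeR, with 2 higher and 0 lower (18.2%, beside 9.26% of all genes tested) at an unadjusted p under 0.05. DESeq2 called 1 (*SLC7A5*), where it called 1.83% of all genes tested, and limma-voom called 0. *PCNA* and *CDK4*, cell cycle genes tied to this protein at tight junctions, were at 0.02 (adjusted p = 0.984) and -0.04 (adjusted p = 0.962). *SLC7A5*, the amino acid transporter whose mRNA YBX3 binds, had 2961, 2267 and 2855 counts under control siRNA, against 3687, 3281 and 3248 under siKIFC1 #2. The groups did not overlap in CPM, at 158.4 ± 18.1 and 216.8 ± 18.3 (SD, n = 3 each). Its log2 fold change was 0.45 (SE 0.12, adjusted p = 0.128), and with the replicate block its adjusted p was 0.000454. It was also called by DESeq2 (adjusted p = 0.0248) and without siKIFC1 #2 replicate 3 (adjusted p = 0.0154). Its partner chain *SLC3A2* was at 0.25 (adjusted p = 0.678). The exchange factor *ARHGEF2*, a tight junction partner, was at 0.38 (adjusted p = 0.264, or 0.0130 with the block). *SLC7A5* and *ARHGEF2* were the block's 2 calls in this list (18.2%, beside 5.83% of all genes tested). The scaffold *TJP1* (ZO-1), which holds this protein at junctions, had 7 to 55 counts per library. The 8 germ-cell genes associated with YBX2, among them the protamines, had 0 to 5 counts per library, and 0 passed the filter for testing.

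The genes whose log2 CPM over the 6 libraries ran most like that of *YBX3*, among 11802 with a mean log2 CPM of at least 2, were *SYPL1*, *VKORC1L1*, *SLC39A8*, *BAALC* and *NUP54*. Pearson's r was 0.997, 0.996, 0.995, 0.993 and 0.992 over the 6 libraries. The libraries are shared and fall into the same 2 groups for every gene, so that r mostly follows the step between groups, and it is given as a description with no p. Mean levels went from 31.5 to 65.8 CPM for *SYPL1*, from 64.5 to 108.5 for *VKORC1L1*, from 6.22 to 7.48 for *SLC39A8*, from 44.3 to 69.0 for *BAALC* and from 25.8 to 37.2 for *NUP54*. The step of *SLC39A8*, 0.27 on the log2 scale (SE 0.17), was the smallest of the 5. In all of them, as in *YBX3*, control replicate 1 was the highest control library, a pattern favoured by their choice over these same libraries.

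**Figure D5:**
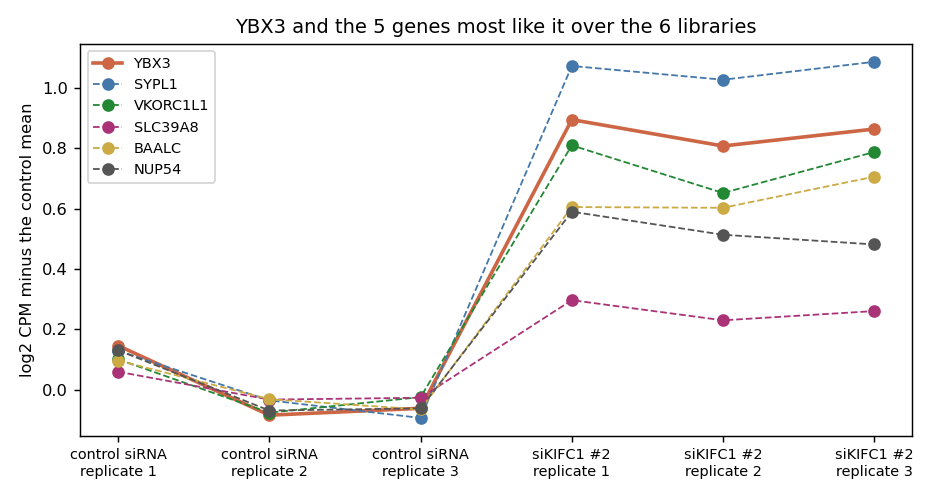
Log2 CPM minus the control mean, by library, for *YBX3* and the 5 genes most like it, with lines that only join the points of 1 gene. All 6 genes have control replicate 1 above the other controls, and *SYPL1* (31.5 to 65.8 CPM) has a larger step than *YBX3* (118.8 to 214.6 CPM). The 5 genes were picked for likeness over these libraries, which favours such a shared pattern.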

How the data were processed

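RNA of H146 cells at day 2 after transfection was sequenced in 3 control siRNA and 3 siKIFC1 #2 libraries. Per the submitters' processing notes and the methods, the authors aligned reads to GRCh38 with HISAT2 2.2.1, counted them with featureCounts 2.0.8 and deposited raw counts for 28395 NCBI gene IDs (27745 matched to a symbol, 650 not). The annotation, strand setting and treatment of multiply aligned reads are not given in the sources used here. The authors used DESeq2 1.46.0 in R 4.4.2.

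The test was edgeR 4.0.16 (R 4.3.3) with filterByExpr, *KIFC1* added, TMM scaling and a robust quasi-likelihood fit. P-values of the 14777 genes were adjusted by Benjamini-Hochberg, with 0.05 as the threshold. The SE of a log2 fold change is its size over the square root of F. CPM is the count over the TMM-scaled library size. Log2 CPM used a prior count of 2. The biological coefficient of variation was 13.1%. Where nothing says how replicates were separated, p-values measure only the spread between these libraries. On simulated data, 193 of 200 genes with a log2 fold change of 1 were called among 14608, with 9 unchanged genes called. This gives no recovery for smaller changes. Transcripts, lengths and 3′ UTRs of at least 50 bases came from GENCODE 44 on GRCh38 and let-7 from RefSeq (Python 3.11.15, numpy 2.4.6, pandas 2.3.3, matplotlib 3.10.9).

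After removal of group means, same-numbered libraries correlated at 0.488, 0.386 and 0.454 over 11803 genes, and others at -0.424 to -0.0310. Once same-numbered pairs are positive, this removal makes the others negative on average, so only the positive values are read. The numbers were therefore taken to pair the libraries in the replicate block, which was run as an alternative, though the labels state no pairing. The main test did not use this pairing, so calls given without mention of the block are unpaired. Genes named are the 5 cold shock domain genes, list genes with an adjusted p under 0.05, the 3 highest by mean CPM in each list, the 5 most like *YBX3*, and *KIFC1*. Others named were chosen after their values were seen. A few genes that this rule or the lists hold are not reported here. The genes, lists and tests were chosen with earlier results of these data known. Alternatives were DESeq2 1.42.0, its size factors, library size only, mitochondrial genes left out, limma-voom (limma 3.58.1), no filter, a minimum of 10 counts in each library, the replicate block, and each library left out.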

Additional observations from a re-analysis of the deposited data

How the results depend on the processing

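*YBX3* kept its direction in all 14 alternatives, at a log2 fold change of 0.81 to 0.93, and *YBX1*, *YBX2*, *LIN28A* and *LIN28B* were called in none that gave a value. *LIN28A* gave no value under a minimum of 10 counts, nor under DESeq2, where its adjusted p was NA. The number of genes called, 103, became 270 with DESeq2, 265 without a filter on low counts, 861 with the replicate number as a block, and 24 (without control siRNA replicate 3) to 468 (without siKIFC1 #2 replicate 3) when 1 library was left out. Of the pathway genes, the 2 calls became 5 with DESeq2, 5 without a filter, 12 with the replicate block and 0 to 6 with 1 library left out. The cause of these shifts was not tested. The block changed the calls of *KIFC1* and of 10 list genes given above, and no other call given here. Leaving out 1 library turned the sign of small values, with ranges of -0.036 to 0.081 for *YBX1*, -0.31 to 0.13 for *YBX2*, -0.11 to 0.57 for *LIN28A*, -0.17 to 0.14 for *LIN28B*, -0.11 to 0.028 for *CARHSP1*, -0.044 to 0.085 for *XPO5*, -0.33 to 0.036 for *HUWE1*, -0.077 to 0.026 for *HNRNPU*, -0.075 to 0.19 for *RPS6KA3*, -0.077 to 0.075 for *PCNA* and -0.11 to 0.057 for *CDK4*. *AGO2* (adjusted p = 0.00550) and *SLC7A5* (adjusted p = 0.0154) were called without siKIFC1 #2 replicate 3, and *SLC7A5* also with DESeq2 (adjusted p = 0.0248) and without a filter (adjusted p = 0.0488). Depth limits *LIN28A*, with 5 to 20 counts per library, and *YBX2*, with 24 to 47.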
